A study of Mus musculus with 1479 samples.

Results

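The data were Smart-seq2 read counts of single cells from the urinary bladder of male mice, and the comparison here set the cells labelled cluster 3 against the cells labelled cluster 6, a pair of fibroblast clusters among the 11 clusters of the series. All cells with either label were members, 345 cells of cluster 3 and 188 cells of cluster 6 among 1479 cells in all. To compare like with like, cells were contrasted only within the same plate and mouse line, and only where both clusters had at least 3 cells, which kept 344 cells of cluster 3 and 185 cells of cluster 6 in 6 groups. The mice were 10 to 20 weeks old. The PdgfrbGFP, PdgfraGFP and Acta2GFP lines carry a green fluorescent protein under the control of the Pdgfrb, Pdgfra or Acta2 gene, while C57BL6 mice carry no reporter, and sorted cells were PECAM1-negative. The groups, with cells of cluster 3 and cluster 6, were plate 074s PdgfrbGFP (99 and 66), plate 443s C57BL6 (71 and 19), plate 515s Acta2GFP (37 and 6), plate 515s PdgfrbGFP (78 and 9), plate 689s PdgfraGFP (13 and 30) and plate 881s PdgfrbGFP (46 and 55). Cells of the Cspg4dsRED line, 1 of cluster 3 and 3 of cluster 6, were left out because no plate held 3 of each. The labels name no animal, so the 3 PdgfrbGFP plates may share mice, and p-values measure the spread between plates and lines only. The clusters had been assigned by the authors from the same expression values, so every test below describes how far a difference repeated over the groups and is no independent evidence that the clusters differ.

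Fibroblasts of the bladder wall build and turn over the collagen-rich matrix between epithelium, muscle and vessels. They also secrete signals such as Wnt ligands and the proteins that restrain them, and they respond to hedgehog ligands from the epithelium through the receptor Ptch1 and the transcription factors of the Gli family. Fibroblasts around vessels and in connective tissue sheaths are often told apart from those within the tissue by markers such as Pi16 and Cd34.

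The label of both clusters as fibroblasts was checked against markers. The summed level of 10 fibroblast markers (among them Col1a1, Dcn and Pdgfra) lay between 14966 and 23283 reads per 500000 endogenous reads over the groups in cluster 3 and between 15463 and 25245 in cluster 6. In the mural cells of cluster 10 the same sum lay between 826 and 2600. Dcn, a collagen-binding proteoglycan, had a mean of 3366 ± 930 (SD, n = 6 groups) in cluster 3 and 3544 ± 981 in cluster 6. Myh11 and Rgs5, contractile and pericyte markers, stayed at or below 7.66 reads per 500000 in every group of either cluster, and Tnc, a marker of the fibroblasts beneath the epithelium, at or below 3.62. The whole list of 8 markers of those fibroblasts, which includes Acta2, summed to 98.3 to 646 in cluster 3 (median 158) and 83.9 to 168 in cluster 6 (median 147). The 10 mural markers summed to 45.5 to 140 in cluster 3 and 40.3 to 107 in cluster 6, against 7713 to 13265 in cluster 10. Sums of endothelial, immune, urothelial, glial and mesothelial marker lists overlapped between the clusters and stayed at or below 94.6, 38.6, 45.9, 15.4 and 56.7 reads per 500000 in every group.

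With edgeR on counts of cells thinned to 50000 endogenous reads, 17 of 10500 genes tested were called (0.162%) at an adjusted p under 0.05 and a log2 fold change of at least 1 in either direction. Calls and adjusted p-values are those of edgeR where no other tool is named. Cluster 3 was higher for 8 (0.0762%): Tmem100, Wnt2, Timp3, Syn3, Ackr2, Fn1, Sema3c and Scara5. Cluster 6 was higher for 9 (0.0857%): Cilp, Sfrp1, Thbs2, Fam198b, Ssc5d, Hsd11b1, Gucy1a1, Adcyap1r1 and Jup. All but Fn1 had the same direction in 6 of 6 groups. Over all genes tested, 506 (4.82%) were higher in cluster 3 in every group and 181 (1.72%) were higher in cluster 6 in every group. The ranges over groups did not overlap at all for 48 genes higher in cluster 3 (0.457%) and 22 higher in cluster 6 (0.21%). All tested genes together had a median of 0.18 on the log2 scale towards cluster 3. With that median set to 0, 5 genes (0.0476%) were called higher in cluster 3 and 21 (0.2%) higher in cluster 6. With counts without thinning scaled to ERCC spike-in reads, 8 of 12330 genes were called higher in cluster 3 and 2 higher in cluster 6. The balance of directions therefore rests on the scaling. When counts were summed over the 4 mouse lines instead of the 6 groups, 0 of 10211 genes (0%) were called by edgeR, with 382 at an unadjusted p under 0.05. At that unadjusted threshold the 6 groups gave 583 genes (5.55%). On the 6 groups DESeq2 called 123 genes (1.17%) and limma 113 (1.08%), with 17 and 16 of the edgeR calls among them. DESeq2 used the thinned counts, while limma used mean log2 levels of cells without thinning, so its cells were not at equal depth. Leaving out 1 group at a time gave 4 to 28 calls by edgeR. Cilp kept its call in 17 of 20 alternative analyses and Fam198b in 13, while the other called genes outside Timp3, Syn3 and Thbs2 kept theirs in 8 to 12.

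**Figure D1:**
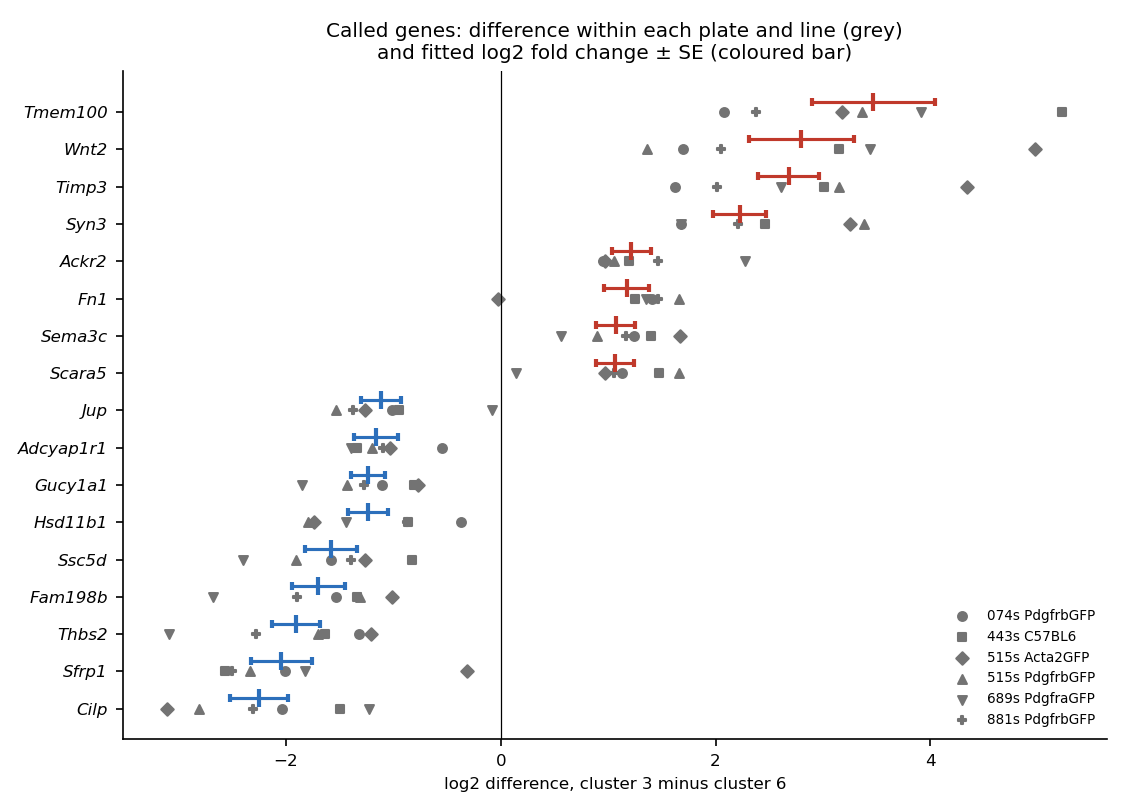
The 17 called genes are listed on the y axis and the log2 difference between cluster 3 and cluster 6 is on the x axis; each grey symbol is 1 plate and line, and each coloured bar is the fitted log2 fold change with its SE. Fn1 has 1 symbol at about 0, from Acta2GFP, and the other genes lie on 1 side of 0 in all 6 groups.

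Timp3 and Thbs2, together with Syn3, kept their call in 19 of 20 alternative analyses. Their RefSeq promoter windows (GRCm38.p6, 250 bases before to 50 after the annotated start, written 5′ to 3′ on the strand of the gene) are shown with those of Wnt2 and Cilp, so that each direction has its leading genes. Of the 17 called genes 10 had an entry. Capitals mark GC boxes, that is GGGCGG on either strand, which 35.7% of all 32851 promoter windows held. The windows lie at chr10:86300162-86300461 (plus strand), chr6:18030396-18030695 (minus strand), chr17:14694213-14694512 (minus strand) and chr9:65264930-65265229 (plus strand) in the order Timp3, Wnt2, Thbs2 and Cilp.
Timp3: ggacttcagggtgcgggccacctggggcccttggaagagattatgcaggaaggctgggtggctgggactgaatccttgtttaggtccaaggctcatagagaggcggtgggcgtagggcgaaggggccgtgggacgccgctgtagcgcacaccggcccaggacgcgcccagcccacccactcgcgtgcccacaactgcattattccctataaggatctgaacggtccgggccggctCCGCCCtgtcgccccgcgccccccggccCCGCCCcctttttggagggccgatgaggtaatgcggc
Wnt2: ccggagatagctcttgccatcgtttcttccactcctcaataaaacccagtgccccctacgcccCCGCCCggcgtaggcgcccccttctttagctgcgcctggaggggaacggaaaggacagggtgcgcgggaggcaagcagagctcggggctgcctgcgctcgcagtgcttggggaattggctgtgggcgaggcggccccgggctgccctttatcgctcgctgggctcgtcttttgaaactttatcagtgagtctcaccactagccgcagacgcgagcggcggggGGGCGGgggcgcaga
Thbs2: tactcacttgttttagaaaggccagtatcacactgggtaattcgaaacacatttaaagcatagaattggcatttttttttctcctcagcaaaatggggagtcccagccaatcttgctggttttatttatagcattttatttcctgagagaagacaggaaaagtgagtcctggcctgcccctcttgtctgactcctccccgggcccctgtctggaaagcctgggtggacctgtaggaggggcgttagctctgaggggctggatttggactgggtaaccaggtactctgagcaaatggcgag
Cilp: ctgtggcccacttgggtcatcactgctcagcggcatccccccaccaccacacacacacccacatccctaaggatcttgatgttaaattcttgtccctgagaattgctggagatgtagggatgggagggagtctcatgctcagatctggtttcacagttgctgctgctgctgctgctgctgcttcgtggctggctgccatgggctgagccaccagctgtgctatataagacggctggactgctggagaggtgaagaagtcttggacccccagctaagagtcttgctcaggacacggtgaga
Timp3 and Wnt2 each held 2 GC boxes, while Thbs2 and Cilp held 0 of this exact sequence. Among called genes with an entry, 3 of 4 genes higher in cluster 3 and 3 of 6 genes higher in cluster 6 held at least 1.

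The clearest gene of cluster 3 was Timp3, which encodes a matrix-bound inhibitor of metalloproteinases (chromosome 10, 86300372 to 86349506, plus strand). In cluster 3 its level per group was 489 (074s PdgfrbGFP), 750 (443s C57BL6), 707 (515s Acta2GFP), 693 (515s PdgfrbGFP), 1284 (689s PdgfraGFP) and 618 (881s PdgfrbGFP) reads per 500000, and in cluster 6, in the same order, 158, 92.3, 33.9, 77.2, 209 and 152. The lowest group of cluster 3 therefore stood above the highest of cluster 6, and the fitted log2 fold change was 2.68 ± 0.28 (SE, adjusted p = 0.00459). Syn3, a synapsin gene on the opposite strand whose exons overlap Timp3, had a log2 fold change of 2.23 ± 0.25 (adjusted p = 0.00459). Because the libraries do not mark strand, reads in exon stretches shared by Timp3 and Syn3 cannot be told apart. Both calls may therefore come from the same transcripts. The call of Timp3 was lost only with sums per mouse line (log2 fold change 2.89 ± 0.35, adjusted p = 0.0969). Of 18 tested metalloproteinases and inhibitors edgeR called 1, Timp3, while DESeq2 and limma called 2 each. The median log2 fold change of the list was 0.08, against 0.18 over all genes tested. Levels of Timp3 in some other clusters of the same plates were also high, 894.5 ± 352 in cluster 1, 790 ± 135 in cluster 2 and 1283 ± 434 in cluster 7, and mural cells of cluster 10 had 1576 ± 769.

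Wnt2, a secreted Wnt ligand, ranged from 93.7 to 151 reads per 500000 over the groups of cluster 3 (median 127) and from 2.01 to 47 in cluster 6 (median 22.5). The ranges did not overlap, and the log2 fold change was 2.80 ± 0.49 (adjusted p = 0.0439). After thinning, 154 of 342 cells of cluster 3 (45.03%, exact Clopper-Pearson 95% interval 39.7 to 50.5) had at least 10 Wnt2 reads, against 16 of 184 cells of cluster 6 (8.70%, 5.05 to 13.7) and 0 of 60 mural cells of cluster 10 (upper limit of the same interval 5.96%). Without thinning the shares were 64.2%, 32.97% and 5.00% at median depths of 251159, 310898 and 170086 reads. With at least 1 Wnt2 read after thinning they were 71.1%, 52.2% and 36.7%, so that a single read was common in mural cells too. The intervals cover counting error only, as cells of a group may share animals. The shares pool cells over the groups, whose mix differs between the clusters. Sfrp1, a secreted antagonist of Wnt ligands, had the opposite direction, with 30.4 to 69.2 in cluster 3 (median 46.2) and 54.5 to 250.3 in cluster 6 (median 223). Its log2 fold change was −2.04 ± 0.28 (adjusted p = 0.0142), with the smallest gap in 515s Acta2GFP (43.7 and 54.5), where cluster 6 had 6 cells.

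Of 38 genes on a list of the Wnt pathway 18 were tested, and edgeR called 1 higher in cluster 3 (Wnt2) and 1 higher in cluster 6 (Sfrp1). The median log2 fold change was 0.50, against 0.18 over all genes tested. In every group 5 of 18 members were higher in cluster 3, against 4.82% of all genes tested. Of these, 4 were not called by edgeR. These were the ligands Wnt2b and Wnt9a, the receptor Fzd4 and the secreted Dkk3, chosen here after their values were seen. Wnt2b, a close relative of Wnt2, had levels of 15.9 to 136 in cluster 3 and 0 to 19.1 in cluster 6 (log2 fold change 2.81 ± 0.70, adjusted p = 0.229 by edgeR, 0.00143 by DESeq2 and 0.0083 by limma, both of which called it). Frzb, another secreted Wnt antagonist of the Sfrp family, had 21.5 to 46.4 in cluster 3 and 60.01 to 135 in cluster 6. Its groups did not overlap, and its log2 fold change was −1.56 ± 0.28 (adjusted p = 0.0517 by edgeR, 1.48e-05 by DESeq2 and 0.0175 by limma). Of the whole Wnt list DESeq2 called 4 genes and limma 5.

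The list of hedgehog response genes and Fox factors had 11 tested members of 19, of which edgeR called 0 (4 at an unadjusted p under 0.05), DESeq2 called 2 and limma 1. Its median log2 fold change was 0.55, against 0.18 over all genes tested. Of all genes tested 5.55% had such an unadjusted p and 4.82% were higher in cluster 3 in every group. Ptch1, the hedgehog receptor and itself a target of the pathway, had levels of 60.8 to 238 in cluster 3 and 6.75 to 56.9 in cluster 6. The ranges did not overlap, and the log2 fold change was 1.98 ± 0.45 (adjusted p = 0.146 by edgeR, 0.00236 by DESeq2 and 0.0416 by limma). Hhip, a decoy receptor induced by the pathway, had 0.332 to 20.9 and 0 to 2.41. Thus 2 of 11 members were higher in cluster 3 in every group, neither called by edgeR after adjustment (unadjusted p = 0.000805 for Ptch1 and 0.000747 for Hhip). Gli1, the usual readout of the pathway, was higher in 5 of 6 groups (17.5 to 79.7 against 11.7 to 26.4, adjusted p = 0.895). Gas1, a cell surface co-receptor, went the other way in every group, with 266 to 443 in cluster 3 and 453 to 930 in cluster 6 (log2 fold change −0.75 ± 0.14, adjusted p = 0.0558).

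**Figure D2:**
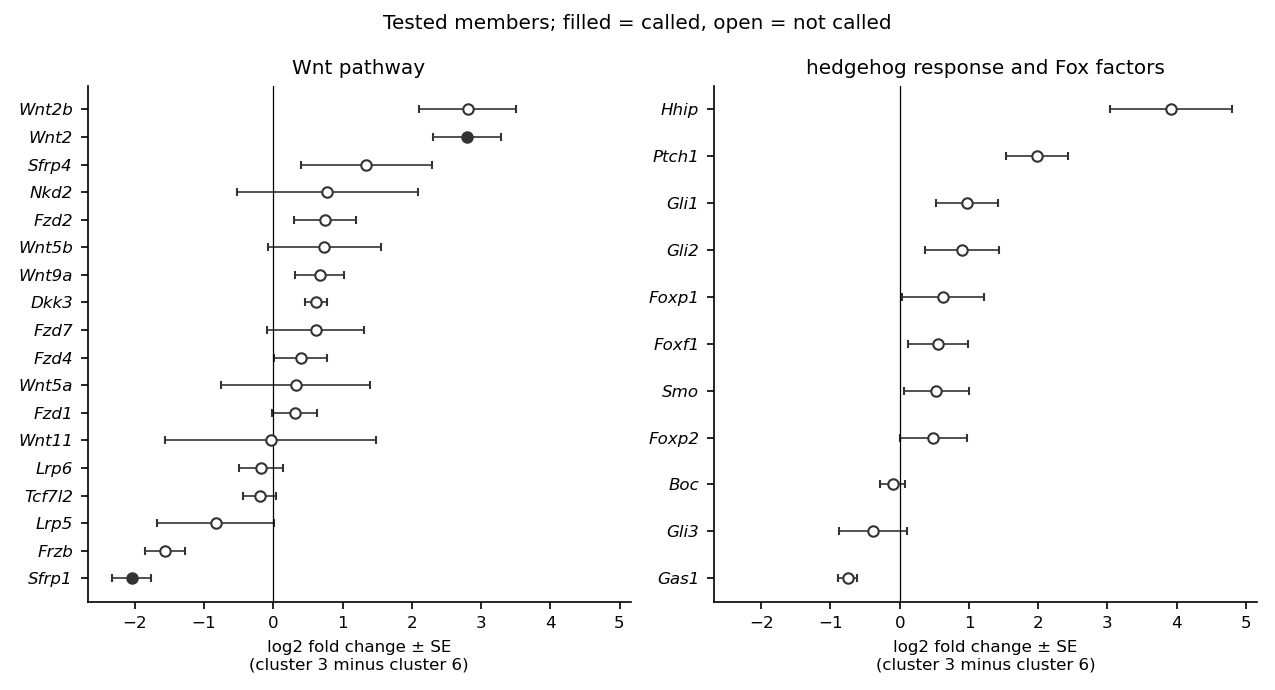
Tested members of the Wnt list (left) and of the hedgehog and Fox list (right), with the fitted log2 fold change of cluster 3 minus cluster 6 and its SE on the x axis. Wnt2 and Sfrp1 are filled because they were called; Hhip and Ptch1 lead the hedgehog list with open symbols, as their adjusted p was above the threshold.

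Thbs2, a secreted matricellular protein of the thrombospondin family, was the most abundant called gene of cluster 6 (chromosome 17, 14665500 to 14694235, minus strand). Its level in cluster 6 was 1196 (074s PdgfrbGFP), 2420 (443s C57BL6), 2167 (515s Acta2GFP), 2531 (515s PdgfrbGFP), 1792 (689s PdgfraGFP) and 1517 (881s PdgfrbGFP) reads per 500000, and in cluster 3 it was 478, 778, 939, 777, 209 and 312. Cluster 3 stayed below the lowest group of cluster 6 throughout (log2 fold change −1.90 ± 0.22, adjusted p = 0.00459). Cilp, a matrix protein first known from cartilage, had 12.6 to 93.1 in cluster 3 and 116 to 219 in cluster 6, again without overlap (log2 fold change −2.26 ± 0.27, adjusted p = 0.00459). In thinned cells 56 of 184 of cluster 6 had at least 10 Cilp reads (30.4%, 23.9 to 37.6) and 30 of 342 of cluster 3 (8.77%, 6.00 to 12.3), against 0 of 60 mural cells. Most cells of cluster 6 were thus below that mark too. These shares pool cells over the groups, whose mix differs between the clusters, and the intervals cover counting error only. At least 1 Cilp read was found in 58.2% of cluster 6, 30.99% of cluster 3 and 33.3% of mural cells, while the mean level was 43.7 ± 28.7 in cluster 3 and 4.34 ± 3.89 in the 5 groups with mural cells. Fn1, the gene of fibronectin, had the opposite direction within the matricellular list, with 144 to 316 in cluster 3 and 53.6 to 241 in cluster 6 (log2 fold change 1.17 ± 0.21, adjusted p = 0.0465). It was higher in cluster 3 in 5 of 6 groups, with 237 and 241 in 515s Acta2GFP. Of 11 tested matricellular genes edgeR called these 3, DESeq2 called 4 and limma 3. The median log2 fold change was −0.20, against 0.18 over all genes tested.

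**Figure D3:**
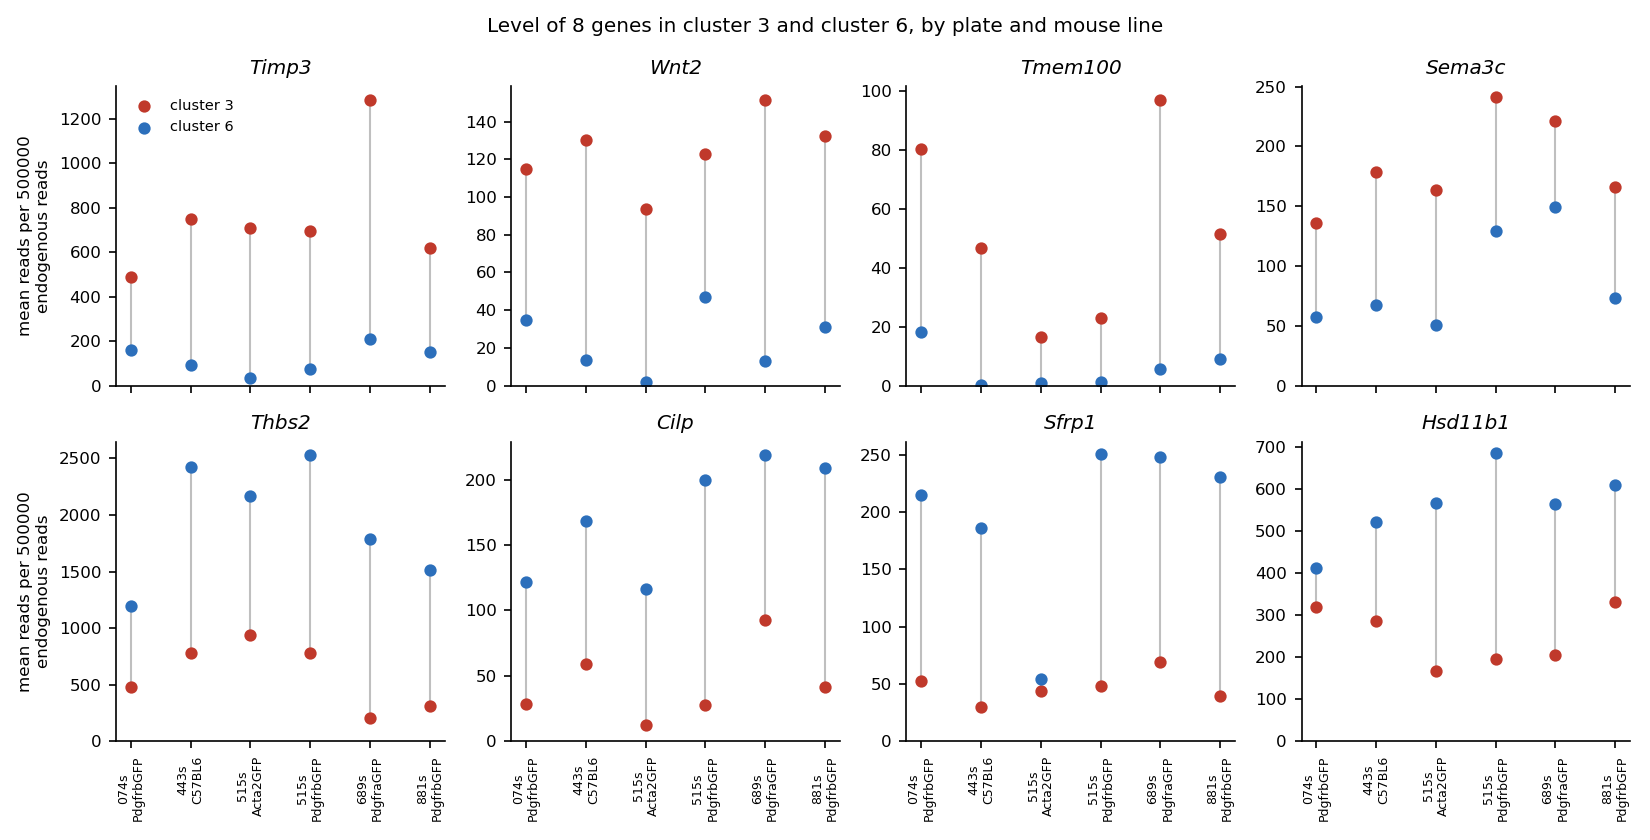
Mean level (reads per 500000 endogenous reads) of 4 genes higher in cluster 3 (top) and 4 genes higher in cluster 6 (bottom), with the 6 plates and lines on the x axis and 1 point per cluster; y axes start at 0 and differ in scale. The points of Timp3, Wnt2, Thbs2, Cilp and Hsd11b1 do not overlap between the clusters, while Sfrp1 has its smallest gap in 515s Acta2GFP (43.7 and 54.5).

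Of 6 tested fibrillar collagens 0 were called by edgeR, DESeq2 or limma, and 0 had an unadjusted p under 0.05. In addition 0 were higher in 1 cluster in every group, and the median log2 fold change was 0.01. These counts are near the shares over all genes tested (0.162%, 1.17% and 1.08% called by edgeR, DESeq2 and limma, 5.55% at that unadjusted p). Of all genes tested 1.72% were higher in cluster 6 in every group, and their median log2 fold change was 0.18. Basement membrane genes had 0 calls by edgeR among 19 tested (8 at an unadjusted p under 0.05, 0 calls by DESeq2 and 1 by limma), a median of −0.33, and 4 members higher in cluster 6 in every group. Among these Lamb1, a laminin chain, had 196 to 309 in cluster 3 and 289 to 923 in cluster 6 (log2 fold change −0.90 ± 0.17, adjusted p = 0.0610). Col6a3, a type VI collagen chain, had 36.6 to 129 and 166 to 305, without overlap (adjusted p = 0.0985 by edgeR, 0.00022 by DESeq2, which called it, and 0.0749 by limma).

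Hsd11b1, the enzyme that regenerates active glucocorticoids within cells, had 169 to 332 in cluster 3 and 412 to 688 in cluster 6 (log2 fold change −1.24 ± 0.19, adjusted p = 0.0207). Gucy1a1, a subunit of the nitric oxide receptor guanylate cyclase, had 164 to 381 and 367 to 676 (−1.24 ± 0.16, adjusted p = 0.00694). The receptor of the neuropeptide PACAP, Adcyap1r1, had 54.6 to 71.6 in cluster 3 and 98.8 to 177 in cluster 6, and its groups did not overlap. Fam198b (38.1 to 83.7 and 115 to 249), whose exons overlap an antisense transcript, the soluble scavenger receptor Ssc5d (17.4 to 68.9 and 63.3 to 367) and the junction protein Jup (61.2 to 161 and 129 to 283) were the other genes called higher in cluster 6. On the side of cluster 3 stood Ackr2, a scavenging receptor for inflammatory chemokines, with 176 to 388 against 63.2 to 186 (log2 fold change 1.22 ± 0.18, adjusted p = 0.0207). Sema3c, a secreted guidance cue, had 136 to 241 against 50.7 to 150 (1.07 ± 0.18, adjusted p = 0.0371), and Scara5, a ferritin receptor, had 764 to 995 against 302 to 835 (1.06 ± 0.18, adjusted p = 0.0371). Tmem100, a transmembrane protein gene, was low in both clusters, with 16.5 to 97 in cluster 3 and 0.273 to 18.3 in cluster 6, and had the largest fitted log2 fold change of the calls, 3.47 ± 0.57 (adjusted p = 0.0353).

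Of 19 tested markers of adventitial fibroblasts edgeR called 2 higher in cluster 3 (Wnt2, of the Wnt list too, and Sema3c) and 0 higher in cluster 6, DESeq2 called 2 and limma 4 in either direction, and 6 were higher in cluster 3 in every group. Pi16, the best known of them, had 2082 to 3257 in cluster 3 and 1406 to 2528 in cluster 6 (log2 fold change 0.50 ± 0.10, adjusted p = 0.0687), and Cd34 had 953 to 1729 and 517 to 1473 (0.42 ± 0.13, adjusted p = 0.537). Dpt, another member, was higher in cluster 6 in 5 of 6 groups (adjusted p = 0.237). The shares over all genes tested were 4.82% higher in cluster 3 and 1.72% higher in cluster 6 in every group. At an unadjusted p under 0.05 the share was 5.55%. Of 13 tested markers of parenchymal fibroblasts edgeR called 0 (9 at an unadjusted p under 0.05, 4 calls by DESeq2 and 2 by limma), with 2 members on each side in every group. Among them Penk, the gene of enkephalin, had 30.1 to 91.5 in cluster 3 and 75.8 to 255 in cluster 6 (log2 fold change −1.27 ± 0.24, adjusted p = 0.0610). Among the growth factor receptors used in the sort, Pdgfra had 189 to 375 in cluster 3 and 293 to 812 in cluster 6 (log2 fold change −0.77 ± 0.15, adjusted p = 0.0610), and Pdgfrb had 216 to 386 and 76 to 214 (0.67 ± 0.24, adjusted p = 0.706). Pdgfra was higher in cluster 6 and Pdgfrb higher in cluster 3 in 6 of 6 groups, and neither was called by edgeR (with DESeq2 and limma Pdgfra had adjusted p = 0.00182 and 0.0170, below the fold threshold).

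Immediate-early genes respond within minutes to growth factors or to handling of the tissue. Of 26 tested edgeR called 0 at the fold threshold (13 at an unadjusted p under 0.05, with 2 calls each by DESeq2 and limma). In every group 7 were higher in cluster 6 and 0 in cluster 3, against 1.72% and 4.82% of all genes tested. The median log2 fold change was −0.56, against 0.18 over all genes, of which 5.55% had such an unadjusted p. Btg2 passed the adjusted p but not the fold, with 127 to 264 in cluster 3 and 170 to 504 in cluster 6 (log2 fold change −0.88 ± 0.14, adjusted p = 0.0207). Fos had 1035 to 1353 and 1445 to 2362, without overlap (−0.54 ± 0.14, adjusted p = 0.234). Of 14 tested glucocorticoid targets, some of which are also immediate-early genes, edgeR called 0 (4 at an unadjusted p under 0.05, 3 calls by DESeq2 and 0 by limma) and 4 were higher in cluster 6 in every group, among them Cebpd (42.2 to 106 and 73.3 to 245, adjusted p = 0.0610). Heat shock chaperones, with 15 tested, had a median of −0.01 and 0 members on either side in every group.

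Of 10 tested genes of FGF and HGF signalling edgeR called 0 (4 at an unadjusted p under 0.05, 2 calls by DESeq2 and 0 by limma), 3 were higher in cluster 6 in every group and 1, the growth factor gene Fgf1, was higher in cluster 3 in every group (0.115 to 11.2 against 0 to 3.11, adjusted p = 0.329), at levels of about 1 read or less per thinned cell. Among the 3 were the feedback inhibitors Spry4 (0.620 to 16.4 in cluster 3 and 7.96 to 65.3 in cluster 6) and Dusp6 (4.70 to 47.1 and 48.8 to 95.8), with adjusted p = 0.262 and 0.274. The lists of the BMP pathway (19 tested), the TGF-beta pathway (18), integrins (8), cytosolic ribosomal proteins (80) and nuclear oxidative phosphorylation genes (77) held 0 calls by edgeR, DESeq2 or limma. They had 3, 4, 0, 0 and 0 members at an unadjusted p under 0.05 and medians between −0.11 and 0.08. Calls were rare over all genes tested too (0.162%, 1.17% and 1.08% by edgeR, DESeq2 and limma). Of all genes 5.55% had such an unadjusted p, 4.82% were higher in cluster 3 and 1.72% in cluster 6 in every group, and the median was 0.18. Pltp, a phospholipid transfer protein, passed the adjusted p without reaching the fold, with a log2 fold change of 0.84 ± 0.10 (adjusted p = 0.00459), as did Svep1, Gpx3, Abca8a, Colec12 and Plpp3 on the side of cluster 6 (log2 fold changes of −0.72, −0.78, −0.98, −0.75 and −0.71).

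Tspan18, Fibin and Adm were picked after their values were seen, for large fitted differences that edgeR did not call. Tspan18, a tetraspanin, had 74.3 to 239 in cluster 3 and 2.13 to 45.6 in cluster 6 (log2 fold change 3.69 ± 0.71, adjusted p = 0.0610). Fibin had 0.124 to 17.7 and 53.4 to 96.6 (−3.81 ± 0.74, adjusted p = 0.0610), and Adm, the gene of the vasodilator adrenomedullin, 0.190 to 13.3 and 19.4 to 110 (−2.78 ± 0.58, adjusted p = 0.0985). DESeq2 and limma called all 3. The calcium-activated potassium channel gene Kcnn3, on the list of markers of interstitial cells resembling Cajal cells, had 135 to 433 in cluster 3 and 377 to 678 in cluster 6 (adjusted p = 0.0843). Of the 4 tested genes of that list edgeR called 0 (2 at an unadjusted p under 0.05, 1 call each by DESeq2 and limma). Their median log2 fold change was −0.10, against 0.18 over all genes tested. Kcnn3 and P2ry1 were higher in cluster 6 in every group, while Etv1 and Gpr20 were higher in cluster 3 in 5 of 6 groups (adjusted p = 0.960 and 0.947). All 6 genes of the list summed to 203 to 495 and 467 to 790, mostly from Kcnn3.

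Other clusters of the same plates shared some of these levels. Cilp had a mean of 488 ± 177 in cluster 8 against 172 ± 44.7 in cluster 6 and 43.7 ± 28.7 in cluster 3, and Sfrp1 had 219 ± 90.5 in cluster 8 against 197 ± 74 and 47.4 ± 13.1. Thbs2 stood at 2147 ± 585 in cluster 5 and at 1522 ± 173 in the 3 groups with cluster 11. Wnt2 had means of 342 ± 82.1 in cluster 1, 342 ± 143 in cluster 5, 379 ± 119 in cluster 7 and 141 ± 55.8 in cluster 2, all above that of cluster 3 (124 ± 19.3). Among the clusters with 3 or more groups Ackr2 had its highest mean in cluster 3 (279 ± 89.3), followed by cluster 11 (145 ± 18.8) and cluster 6 (114 ± 46.8). These levels were not tested.

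The 533 cells had 50385 to 1446059 total reads (median 270831). Group medians of total reads went both ways. They were higher in cluster 6 in 074s PdgfrbGFP (318986 against 291755), 443s C57BL6 (337384 against 317727) and 515s PdgfrbGFP (111825 against 109843). They were higher in cluster 3 in 515s Acta2GFP (158342 against 104938), 689s PdgfraGFP (235787 against 144905) and 881s PdgfrbGFP (427914 against 420124). The mean of log2 total reads was higher in cluster 3 in 5 of 6 groups, by 0.16 ± 0.18 (SD over groups, 1.12-fold; two-sided exact sign-flip permutation test, p = 0.0625). The ratio of endogenous to ERCC spike-in reads, which rises with the RNA of a cell, was higher in cluster 3 in 6 of 6 groups, by 0.23 ± 0.08 on the log2 scale (1.17-fold, exact p = 0.0312, the smallest that 6 groups can give). After thinning to 50000 reads, cluster 3 had 336 ± 107 more genes detected per cell than cluster 6, with means of 3082 to 4847 and 2606 to 4474, and was higher in 6 of 6 groups. The mitochondrial share of reads differed by −0.09 ± 0.16 percentage points, with cluster 3 higher in 2 of 6 groups. More RNA in a cell and more efficient capture of its RNA cannot be told apart here. The part of RNA content in the gene differences was not tested. In 150 cells of each cluster matched for depth within groups edgeR called 4 genes (2 in each direction) among 8175 tested (0.0489%), 3 of them among the 17.

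**Figure D4:**
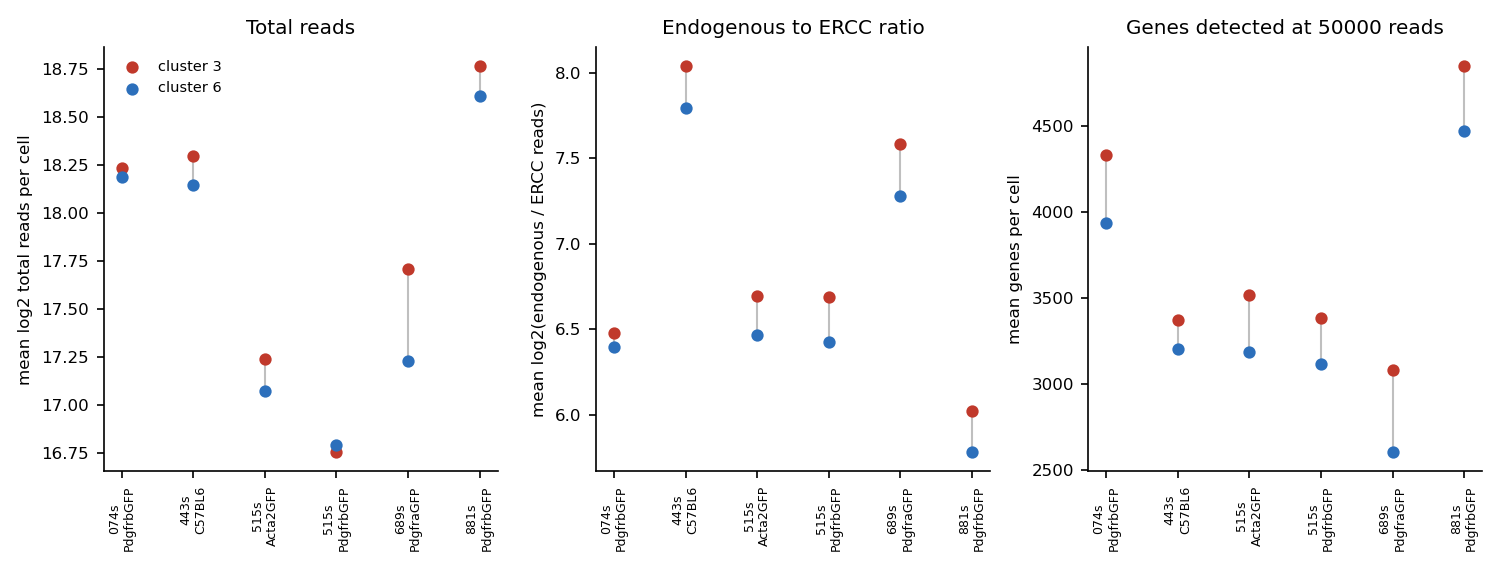
Group means of log2 total reads, of the log2 ratio of endogenous to ERCC reads and of genes detected after thinning to 50000 reads are on the y axes, and the 6 plates and lines are on the x axes. Cluster 3 is above cluster 6 in 5 groups for reads and in all 6 groups for the other measures.

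To see how far single cells followed the called genes, cells of each group were scored with genes called in the other 5 groups, as the mean log2 level of genes higher in cluster 3 minus that of genes higher in cluster 6. The probability that a cell of cluster 3 scored above a cell of cluster 6 (AUC, with 0.5 for no separation) ran from 0.789 (074s PdgfrbGFP, scored with 7 genes) to 0.959 (689s PdgfraGFP, 11 genes), with a median of 0.860 over the 6 groups. Total reads alone gave 0.490 to 0.687 and the ERCC ratio 0.538 to 0.698. In depth-matched cells the score gave 0.779 to 0.976. Cells of both clusters overlapped in every group, and since the labels came from all cells and genes together, the score describes the clusters and does not test them.

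**Figure D5:**
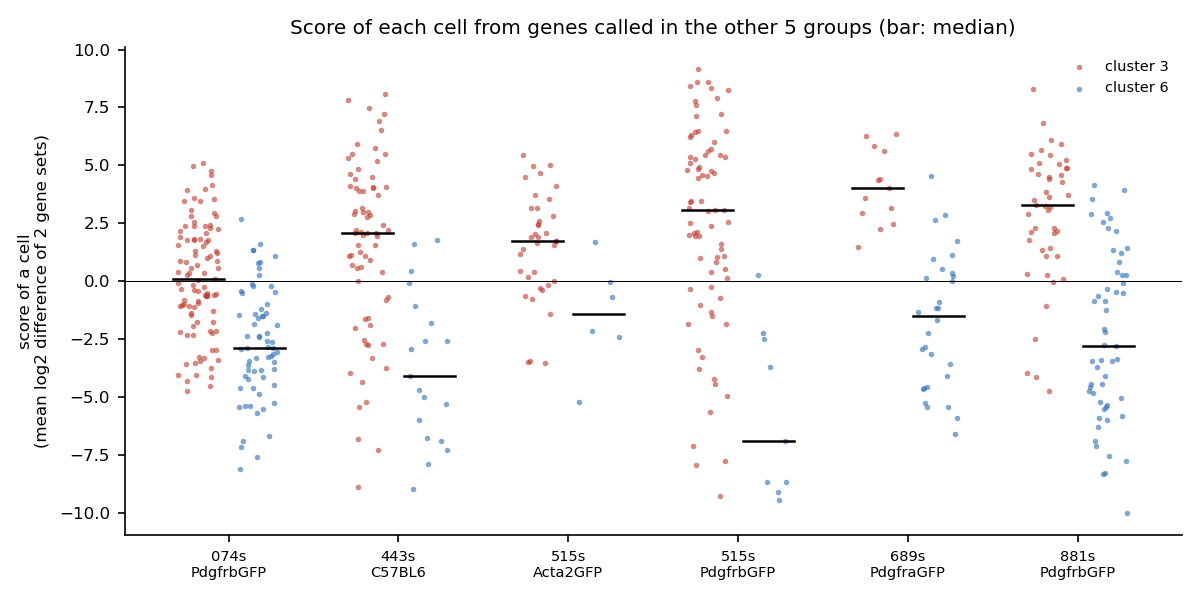
Score of each thinned cell on the y axis (mean log2 level of genes higher in cluster 3 minus that of genes higher in cluster 6, taken from the other 5 groups), with the 6 plates and lines on the x axis and a bar at each median. Cluster 3 has the higher median in all 6 groups, from 0.09 in 074s PdgfrbGFP to 4.03 in 689s PdgfraGFP, with cells of both clusters overlapping in each.

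The clusters took different shares of the fibroblasts of each sort. Of all cells outside the mural cluster, cluster 3 made up 27.4% in 074s PdgfrbGFP (exact Clopper-Pearson 95% interval 22.9 to 32.3, 361 cells), 48.1% in 515s PdgfrbGFP (40.2 to 56.1, 162 cells) and 19.01% in 881s PdgfrbGFP (14.3 to 24.5, 242 cells). In the same groups cluster 6 made up 18.3%, 5.56% and 22.7%. Cluster 3 had 37.97% and cluster 6 10.2% of the 187 cells of 443s C57BL6, and 31.6% and 5.13% of the 117 cells of 515s Acta2GFP. Among the 6 groups, 689s PdgfraGFP and 881s PdgfrbGFP held more cells of cluster 6 than of cluster 3, with 20.4% and 8.84% of the 147 cells of the former. The shares thus varied between the 3 plates of the PdgfrbGFP line, each a single value, with intervals that cover counting error only and no test between plates. C57BL6 and PdgfraGFP each came from 1 of these plates, so plate and line cannot be told apart for them.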

How the data were processed

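Single cells of mouse bladder were sorted into 384-well plates that held ERCC spike-in RNA and made into Smart-seq2 libraries, each sample being 1 cell. The deposited values are raw counts of reads for each gene in each cell. According to the study's methods, the authors trimmed adapters with trim galore, mapped single reads to GRCm38 with TopHat2, removed doublets with samtools and counted with featureCounts, with no strand setting given. The table held 46517 gene rows and 92 ERCC rows; ERCC rows stayed out of library sizes and gene tests, and 0 columns were left unused. Symbols and coordinates came from GENCODE M21 (GRCm38).

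Cells were grouped by the cluster, plate and line of their labels. Cells were thinned by random sampling to 50000 endogenous reads. This left out 2 cells of cluster 3 and 1 of cluster 6, and thinned counts were summed per cluster and group. The sums were tested with edgeR 4.0.16 in R 4.3.3 (TMM, filterByExpr, quasi-likelihood test, Benjamini-Hochberg adjustment) with the plate and line as a block. The pairing comes from the labels: both sums of a group come from the same plate and sort, and their deviations from the cluster means correlated at 0.0719 to 0.321 over 10500 genes. In 515s Acta2GFP that correlation (0.0719) was below the highest with another group (0.0819). Levels are reads per 500000 endogenous reads, averaged over the cells of a group and then over groups. Cell measures were compared by two-sided exact sign-flip permutation over groups (scipy 1.17.1 and numpy 2.4.6 under Python 3.11.15). On simulated counts the test missed most of the genes made to differ, so a gene that was not called may still differ.

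Named genes were called genes with 1 direction in every group and at least 10 reads per 500000 in the higher cluster, called members of the lists, and fixed markers (Pdgfra, Dcn, Cd34, Tnc, Myh11 and Rgs5); other genes were chosen after their values were seen. One gene was taken off its list and is not reported here. The clusters, the gene lists and the rule were chosen with earlier results of these data known. Alternatives were raw sums, a depth of 100000 reads, another draw, depth-matched cells (within 0.25 on the log2 scale), other scalings, DESeq2 1.42.0, limma 3.58.1 on mean log2(reads per 500000 + 1), no filter, sums per line, no block and leaving out each group. The limma means came from all cells of the groups without thinning. Fits on the groups with at least 10 cells of both clusters were added after seeing the data.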

Additional observations from a re-analysis of the deposited data

Results flagged for a closer look

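Among 49 sets of 6 group values examined, 9 had 1 group far from the other 5 by Dixon's ratio at its 95% critical value, by which chance gives about 1 in 20; the sets share groups and are not independent. In 689s PdgfraGFP, Timp3 was at 1284 and Pdgfra at 189 reads per 500000 in cluster 3, and Scara5 at 835 and Ssc5d at 367 in cluster 6. Pdgfra was lowest in this group in cluster 6 too (293). By its name in the paper the reporter of this line is an allele of Pdgfra, and an effect on the Pdgfra level was not tested. Sfrp1 was at 54.5 in cluster 6 of 515s Acta2GFP, which held 6 cells. Adcyap1r1 was at 54.6 in cluster 3 of 443s C57BL6, on a set of values between 54.6 and 71.6. Rgs5 was at 3.23 in cluster 3 and 1.83 in cluster 6 of 881s PdgfrbGFP. The log2 difference in the ratio of endogenous to ERCC reads was 0.083 in 074s PdgfrbGFP, against 0.23 to 0.31 in the other groups.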

How the results depend on the processing

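All 17 called genes kept their direction under each of the 20 alternatives, while the number of calls moved. It was 6 with raw sums, 6 at 100000 reads, 4 in depth-matched cells, 26 with the median gene at 0, 10 with ERCC scaling (median of all genes 0.54), 123 with DESeq2, 113 with limma, 77 without a filter, 0 with sums per line and 9 with no replicate block, of which 8 were among the 17. Leaving out 1 group gave 4 to 28 calls: 7 without 074s PdgfrbGFP, 5 without 443s C57BL6, 28 without 515s Acta2GFP, 4 without 515s PdgfrbGFP, 11 without 689s PdgfraGFP and 4 without 881s PdgfrbGFP. On the 4 groups with at least 10 cells of both clusters, an analysis chosen after seeing the data, 15 genes were called and 9 were among the 17. The cause of these shifts was not tested. Dcn changed direction with ERCC scaling (log2 fold change 0.18). For total reads the mean log2 difference was 0.090 per line. Leaving out 1 group gave 0.097 (without 689s PdgfraGFP) to 0.201 (without 515s PdgfrbGFP). The log2 difference in the ERCC ratio was 0.27 per line (exact p = 0.125, the smallest that 4 lines can give) and 0.21 to 0.26 without 1 group (exact p = 0.0625, the smallest for 5 groups). Cells with few reads limit low genes: at 50000 reads 1 read equals 10 reads per 500000.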
